A study of Mus musculus with 6 samples.

Results

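Surface pit mucous cell genes were taken as a set of 10, Muc5ac, Tff1, Gkn1, Gkn2, Psca, Capn8, Capn9, Ctse, Vsig1 and Sult1c2. They were found as the probes, other than controls, that carry one of these gene names on the array, which gave 12 probes for 10 of 31689 genes. All 10 genes were well above background on all 6 arrays, so the marker genes of the surface cell were present in every sample and none was lost to a filter on low signal.

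The samples were 3 A4gnt-null mice of 5, 10 and 50 weeks and 3 wild-type mice of the same ages, all of strain C57BL/6J, with 1 mouse and 1 array for each genotype and age. Total RNA came, per the labels, from glandular stomach mucosa without its muscle, and was labelled with Cy3 and read on 1-colour Agilent arrays. A4gnt encodes the glycosyltransferase that caps the sugar chains of gland mucin with N-acetylglucosamine, and the labels name no tissue or promoter to which its loss is limited. The comparisons ask how surface cell genes stand in mucosa without this enzyme, and how they move with age.

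Surface mucous cells line the stomach lumen and the pits, are renewed from stem cells in the isthmus below, and secrete the gel that shields the epithelium from acid. Their gel-forming mucin is Muc5ac, whereas the mucous cells deeper in the gland make Muc6, the mucin that carries the sugar A4gnt adds. The trefoil peptide Tff1 and the gastrokines Gkn1 and Gkn2 are secreted with the surface mucin, and in human stomach TFF1 and GKN2 form a dimer.

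The A4gnt probe had processed signals of 2.30, 2.94 and 2.11 in the null arrays, not well above background on any, against 165, 325 and 264 in the wild-type arrays. Null signals were thus below wild-type ones by at least 24.3-fold (limma adjusted p = 0.0922), which checks the genotype labels only if the probe lies in the deleted stretch, and that is not stated. All 3 null arrays lay on slide 2 and all 3 wild-type arrays on slide 1, each scanned once, so slide and genotype cannot be told apart. Between 54.8% and 59.2% of spots per array were well above background, and the number of arrays limits the precision.

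The level of a gene is given as the log2 of its processed signal minus the log2 of the 75th percentile of the same array, so a difference of 1 is 2-fold. Levels of different genes are not set against each other, because each probe has its own response. Differences are null minus wild type. A single age has 1 mouse of each genotype and therefore no test. The mean over the 3 ages was tested with limma, with the age as a block. Its p-values rest on how far the null minus wild-type difference varied between the 3 ages, with each gene's variance drawn toward that of all genes. Spread between mice, spread between arrays and any change of the difference with age cannot be told apart in that variation.

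In A4gnt-null mucosa the glycolipid-anchored protein gene Psca, the calpain gene Capn9 and the mucin gene Muc5ac were lower at all 3 ages, by 0.70, 0.51 and 0.34 on the log2 scale on average. The other 7 genes differed by between -0.15 and 0.13 on average, in either direction from age to age. No difference passed the test. At an adjusted p under 0.05, limma called 0 of the 10 genes, and 0 of all 17860 genes tested (0%), for genotype. At an unadjusted p under 0.05, 2 of the 10 were lower in the null mice, Psca and Capn9, against 12.6% of all genes tested, and 0 were higher, against 11% of all genes. In 3 of 10 genes, Muc5ac, Psca and Capn9, the null mouse was lower at all 3 ages, against 26.1% of all genes. In 0 of 10 it was higher at all 3 ages, also against 26.1%. The median difference of the 10 genes over the ages was -0.13, and that of all genes tested was -0.03. Since the extract was of bulk mucosa, fewer surface cells and less RNA per cell cannot be told apart.

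**Figure D1:**
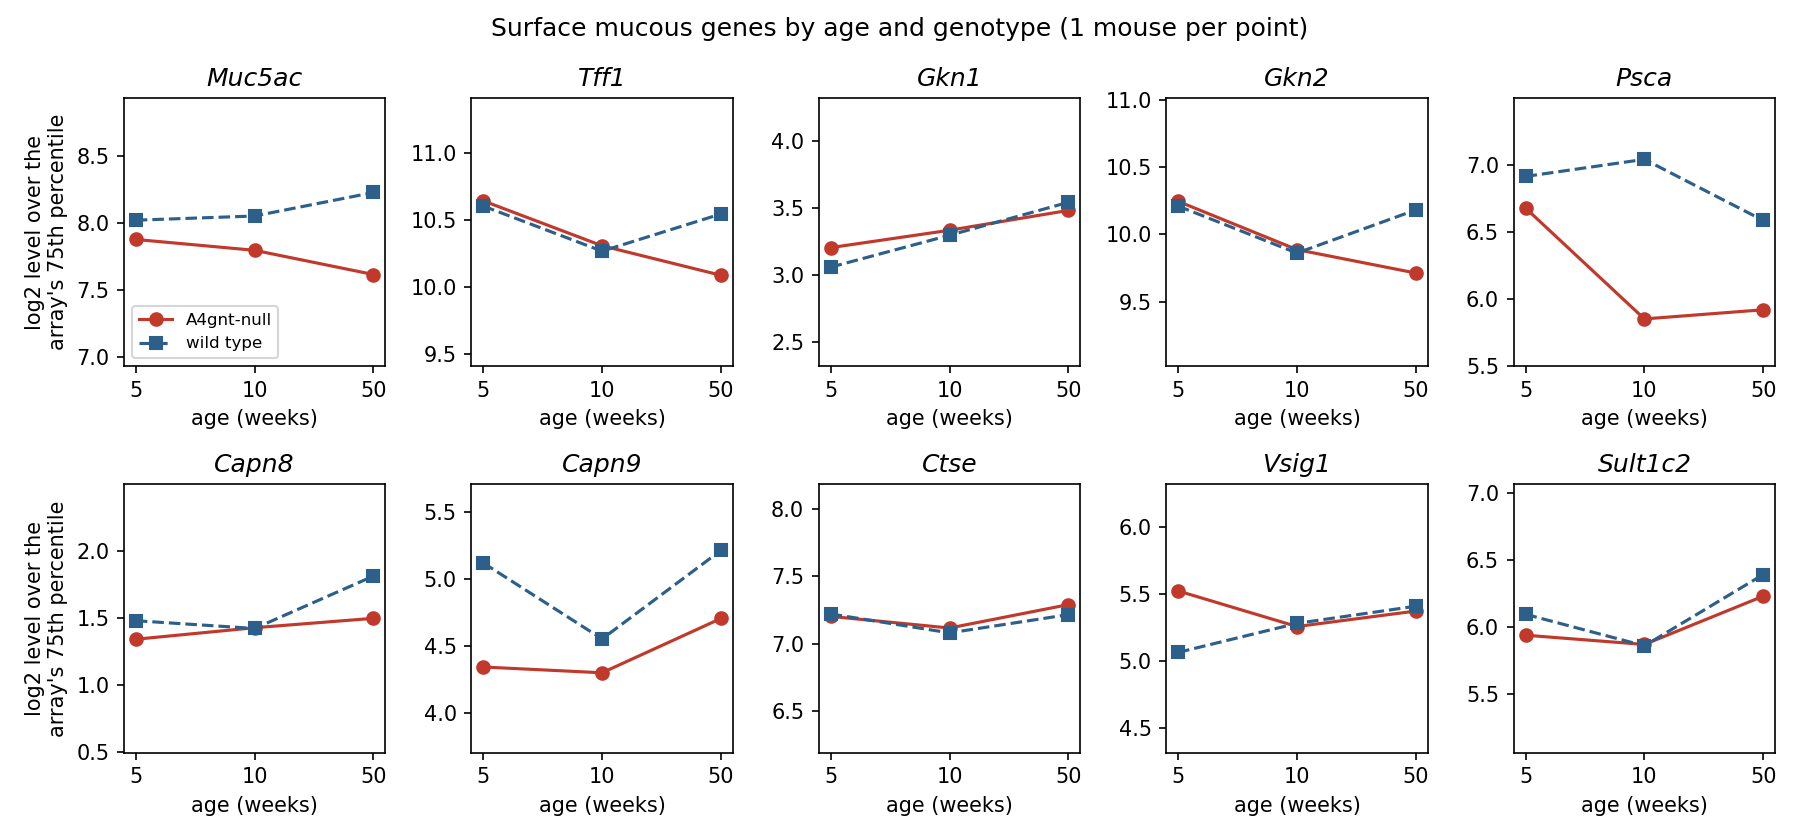
Level of each of the 10 surface mucous genes (log2 over the array's 75th percentile; each panel spans 4-fold) at 5, 10 and 50 weeks, evenly spaced, in A4gnt-null (red circles) and wild-type mice (blue squares), 1 mouse per point. Muc5ac, Psca and Capn9 are lower in the null mouse at all 3 ages, and every null point of Muc5ac lies below every wild-type point.

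The secreted products of the surface cell come first. Muc5ac, the gel-forming mucin, had log2 levels of 7.88, 7.80 and 7.62 in null mice of 5, 10 and 50 weeks, against 8.02, 8.05 and 8.23 in wild-type mice. Every null mouse lay below every wild-type mouse, which held for this gene alone of the 10 and for 11.3% of all genes tested. Muc5ac differed by -0.14 in the youngest pair, -0.26 at 10 weeks and -0.61 in the oldest pair, where the level in the null mouse was 1.53-fold lower. Over the ages Muc5ac averaged 7.76 ± 0.13 in null mice and 8.10 ± 0.11 in wild-type mice (SD, n = 3 each), and limma gave a difference of -0.34 ± 0.15 (SE, adjusted p = 0.253). The 95% interval ran from -0.74 to 0.06. The Muc5ac probe lies at chr7:149004793-149004852 (mm9).

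Tff1, the trefoil peptide that stabilises the mucus gel, stood at 10.64, 10.31 and 10.09 in null mice and at 10.60, 10.27 and 10.54 in wild-type mice of 5, 10 and 50 weeks. The genotypes were nearly level at 5 and 10 weeks and parted at 50 weeks, by -0.46, and their ranges overlapped. The mean difference was -0.13 ± 0.16 (limma adjusted p = 0.648), with a 95% interval from -0.56 to 0.31. A second Tff1 probe gave -0.12 on average, and 0.05, 0.05 and -0.47 at the 3 ages. It is no independent measurement, because the probes share 55 of 60 bases, offset by 5. The first 30 bases of each are shown for this overlap, in capitals where they are common to both, with the probe used for the level second.
Tff1 probe A_55_P2021585: cacagTTCAACCCCTCAGACTTTTAGTCCT
Tff1 probe A_55_P2112005: TTCAACCCCTCAGACTTTTAGTCCTcgaat
The array's own annotation (mm9) places both on chromosome 5 under the accession of Tff1, NM_009362, whereas RefSeq has Tff1 on chromosome 17. The place of these probes in the genome was not analysed here.

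Gkn2, the gastrokine that pairs with TFF1 in human stomach, had levels of 10.25, 9.89 and 9.71 in null mice of 5, 10 and 50 weeks, against 10.21, 9.86 and 10.18 in wild-type mice. As with Tff1, the groups overlapped and stood apart only at 50 weeks, by -0.47. Over the ages the Gkn2 difference was -0.14 ± 0.16 (limma adjusted p = 0.622; 95% interval -0.57 to 0.30). The probe at chr6:87329285-87329344 (mm9) was spotted 10 times, with a log2 SD between spots of 0.115 to 0.172 per array, which measures the spots and not the spread between mice. The log2 ratio of Gkn2 to Tff1 differed between genotypes by -0.003, -0.014 and -0.014 at the 3 ages. Before scaling both genes moved by 1.11-fold or less over the 6 arrays, while the 75th percentile subtracted from them moved by 1.59-fold. Whether the scaled profiles reflect their RNA or the scaling was not tested.

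Gkn1, the gastrokine gene beside Gkn2 on chromosome 6, did not follow that pattern. Its levels were 3.20, 3.33 and 3.48 in null mice of 5, 10 and 50 weeks and 3.06, 3.30 and 3.54 in wild-type mice, higher at each later age in both genotypes. The groups overlapped, and the differences were 0.15, 0.04 and -0.06 at the 3 ages. The mean difference for Gkn1 was 0.04 ± 0.12 (limma adjusted p = 0.846), with a 95% interval from -0.28 to 0.36. Its probe lies at chr6:87295651-87295710 (mm9).

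The 100 bases before the start of Gkn1 and Gkn2 are shown because the scaled levels of these neighbours moved differently over the 6 arrays. No test set the 2 genes against each other. They come from the RefSeq promoter table of build GRCm38.p6, chr6:87350916-87351015 on the minus strand for Gkn1 and chr6:87373265-87373364 on the plus strand for Gkn2, 5′ to 3′, and capitals mark TATAAA or AGATAA.
Gkn1: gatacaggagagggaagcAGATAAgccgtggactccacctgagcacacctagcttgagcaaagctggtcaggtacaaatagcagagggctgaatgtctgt
Gkn2: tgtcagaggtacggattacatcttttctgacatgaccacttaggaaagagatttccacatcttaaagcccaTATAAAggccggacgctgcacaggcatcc
TATAAA, the TATA box, begins 29 bases before the start of Gkn2. At 45 to 16 bases before the start on the gene's strand it stands in 2.14% of 32851 RefSeq promoters. AGATAA, a form of the GATA factor motif, begins 82 bases before the start of Gkn1. Of the 10 genes, 6 had a promoter in the table. Over 250 bases and both strands, TATAAA was in 1 of the 6 (Gkn2) and 12.4% of all promoters, and AGATAA in 2 (Gkn1 and Gkn2) and 9.99% of all. Forkhead motifs were searched too, with TGTTTAC in 0 of the 6 and 3.17% of all promoters, and TGTTTGC in 1 (Gkn2) and 4.3% of all. Each motif was searched with its reverse complement, a base could count toward more than one motif, and a match is a run of letters only.

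Psca, a small glycolipid-anchored protein of the cell surface, had the largest mean genotype difference of the 10. Its levels were 6.68, 5.85 and 5.92 in null mice of 5, 10 and 50 weeks, against 6.91, 7.04 and 6.59 in wild-type mice. The null mouse was lower at each age, but the null mouse of 5 weeks lay above the wild-type mouse of 50 weeks, so the groups overlapped. Psca differed by -0.24, -1.19 and -0.67 at the 3 ages. At 10 weeks Psca was 2.28-fold lower, and it was the 1 gene of the 10 that reached 2-fold at that age, against 6.47% of all genes. At 5 and 50 weeks 0 of the 10 were 2-fold lower, against 6.22% and 5.11% of all genes. Psca averaged 6.15 ± 0.46 in null mice and 6.85 ± 0.23 in wild-type mice (SD, n = 3 each), a difference of -0.70 ± 0.22 by limma (SE, unadjusted p = 0.0326, adjusted p = 0.188; 95% interval -1.30 to -0.09). Its probe lies at chr15:74546879-74546938 (mm9).

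Some genes of the squamous forestomach were higher in the wild-type mice of 10 and 50 weeks. Of 7 forestomach genes 4 were tested, and 0 called (0%). The basal keratin Krt5 differed by -0.12, -4.38 and -4.51 and the cornified envelope gene Lor by 1.04, -4.79 and -6.82 at 5, 10 and 50 weeks. Krt14 and Krt6a were above background on 0 null arrays and on 2 wild-type arrays, those of 10 and 50 weeks, and Krt4 on 0 null arrays and on 1 wild-type array, that of 50 weeks. The other tested genes were closer between genotypes, with Krt13, a suprabasal keratin, at 0.70, -0.26 and -0.14 and Trp63, a basal cell transcription factor, at -0.48, -0.24 and -0.28. The summed level of the 7 forestomach genes, in multiples of the 75th percentile, was 7.12 to 8.31 in null mice and 9.53 to 20.8 in wild-type mice. The tested forestomach genes had a median difference of -2.32 at 10 weeks and -2.39 at 50 weeks. Liver, enteroendocrine and parietal cell genes were among the lists with their lowest median at 10 weeks. Parietal cell genes had medians of -0.45, -1.48 and -1.33 at 5, 10 and 50 weeks. Liver genes had median differences of 0.51, -6.33 and -3.26 at 5, 10 and 50 weeks, with sums of 8.79 to 26.8 in null mice and 20.8 to 67.5 in wild-type mice, and Alb among them differed by 0.51, -6.33 and -4.41. Enteroendocrine genes had medians of 0.06, -1.17 and -0.87, with sums of 255.1 to 413.9 in null mice and 411.7 to 574.2 in wild-type mice. All 5 liver and 6 enteroendocrine genes were tested and 0 called. At 5 weeks, with 1 mouse of each genotype, Krt5 differed by -0.12, Lor by 1.04, Krt13 by 0.70, Trp63 by -0.48 and Psca by -0.24. The part of forestomach, liver, enteroendocrine or parietal cell RNA in the Psca difference was not tested.

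Vsig1, an immunoglobulin-like adhesion protein of gastric epithelium, went the other way at 1 age. It stood at 5.52, 5.26 and 5.37 in null mice of 5, 10 and 50 weeks and at 5.07, 5.28 and 5.41 in wild-type mice. The null mouse was 1.37-fold higher at 5 weeks, and the 2 genotypes were close at 10 and 50 weeks, with differences of -0.02 and -0.04. Over the ages Vsig1 differed by 0.13 ± 0.16 (limma adjusted p = 0.627; 95% interval -0.30 to 0.56). Its probe lies at chrX:137473415-137473474 (mm9).

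The proteases of the set divided. Capn9, which with Capn8 forms the calpain complex of surface mucous cells, had levels of 4.35, 4.30 and 4.71 in null mice of 5, 10 and 50 weeks, against 5.12, 4.55 and 5.21 in wild-type mice. The null mouse was lower at each age, by 0.78, 0.25 and 0.51 on the log2 scale, although the 50-week null mouse lay above the 10-week wild-type mouse. Capn9 averaged 4.45 ± 0.22 in null mice and 4.96 ± 0.36 in wild-type mice (SD, n = 3 each). The difference was -0.51 ± 0.15 by limma (SE, unadjusted p = 0.026, adjusted p = 0.178; 95% interval -0.93 to -0.10). A second probe in the gene, at chr8:127129744-127129803 (mm9) and apart from the first at chr8:127142567-127142626, gave -0.88, -0.28 and -0.89 at the 3 ages and -0.68 on average. The 2 probes thus had the same direction at every age, with the smallest gap at 10 weeks on both.

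Capn8, the partner calpain, stood at 1.34, 1.42 and 1.49 in null mice and at 1.48, 1.42 and 1.81 in wild-type mice of 5, 10 and 50 weeks. The groups overlapped and the differences were -0.14, 0.01 and -0.32. Over the ages Capn8 differed by -0.15 ± 0.13 (limma adjusted p = 0.499; 95% interval -0.49 to 0.20). Its probe lies at chr1:184562310-184562369 (mm9). Whether the calpain partners differed in response was not tested.

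Ctse, the aspartic protease cathepsin E, had the smallest range of the set after scaling. It had levels of 7.20, 7.12 and 7.29 in null mice of 5, 10 and 50 weeks and of 7.22, 7.08 and 7.22 in wild-type mice, a range of 0.21 over all 6 arrays. The groups overlapped, and the differences were -0.02, 0.04 and 0.07 at the 3 ages. The mean was 0.03 ± 0.11 (limma adjusted p = 0.878), with a 95% interval from -0.27 to 0.33. Its probe lies at chr1:133571990-133572049 (mm9). Of the 10 genes 9, all but Psca, ranged over less than 2-fold across the 6 scaled arrays, against 65.9% of all genes tested.

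Sult1c2, a cytosolic sulfotransferase, stood at 5.94, 5.87 and 6.23 in null mice of 5, 10 and 50 weeks and at 6.09, 5.86 and 6.39 in wild-type mice. Both genotypes were lowest at 10 weeks and highest at 50 weeks, and they overlapped. The genotype difference of Sult1c2 was -0.10 ± 0.11 (limma adjusted p = 0.610; 95% interval -0.42 to 0.21). Its probe lies at chr17:53969205-53969264 (mm9).

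**Figure D2:**
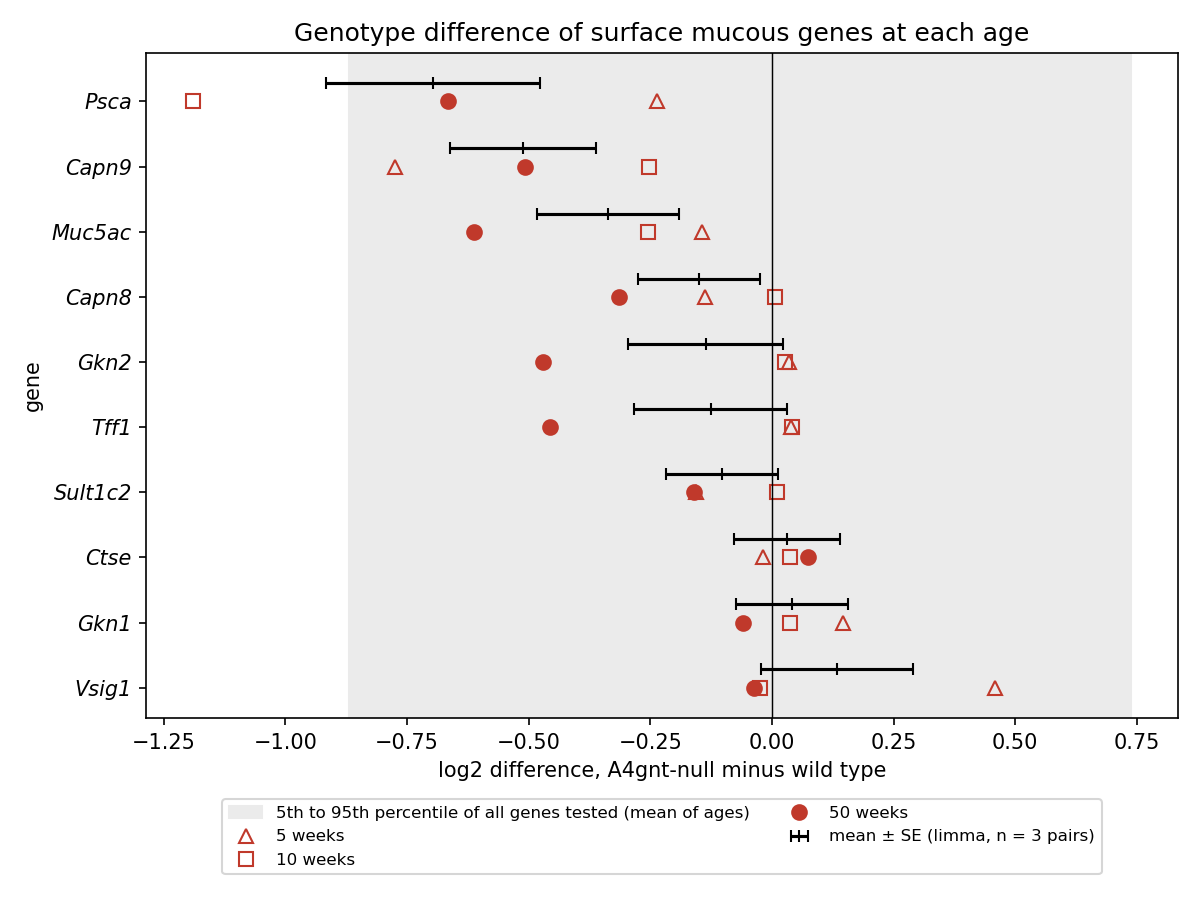
Log2 difference, A4gnt-null minus wild type, of each of the 10 genes at 5 weeks (open triangles), 10 weeks (open squares) and 50 weeks (filled circles), with the limma mean ± SE above each row and a grey band for the 5th to 95th percentile of that mean over all genes tested (-0.87 to 0.74). All 10 means lie within the band, and 9 of the 10 filled circles lie left of 0.

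By age, the genes spread differently. At 5 weeks 6 of 10 were lower in the null mouse, against 51.2% of all genes, and at 10 weeks 4 of 10, against 50.7%. At 50 weeks 9 of 10 were lower, all but Ctse, against 49.8% of all genes. The median difference was -0.08, 0.01 and -0.39 at 5, 10 and 50 weeks, while that of all genes tested was -0.01, -0.01 and 0.00. Genes less than 1.25-fold apart numbered 8 of 10 at 5 weeks, 9 at 10 weeks and 5 at 50 weeks, against 48.8%, 51.7% and 60.8% of all genes. The count of 9 lower at 50 weeks depended on the scaling. Before scaling, Muc5ac (-0.13), Psca (-0.19) and Capn9 (-0.03) were lower in the 50-week null mouse, and the other genes of the 10 were higher. The 50-week counts rest on 1 mouse of each genotype, and that pair also differed in genes of other tissues. Smooth muscle genes had a median difference of -2.60 at 50 weeks, after 2.36 at 5 weeks and 0.51 at 10 weeks, with Cnn1 at -2.72 and Myh11 at -2.60. Pancreas genes had a median of -4.27 and liver genes one of -3.26 at 50 weeks. Sums over the ages were 6.76 to 28.0 in null mice and 3.54 to 31.7 in wild-type mice for smooth muscle, and 21.7 to 362.2 in null mice and 92.8 to 438.5 in wild-type mice for pancreas. Limma called 0 of the 5 smooth muscle and 0 of the 6 pancreas genes over the ages, and the part of these tissues in the 50-week values was not tested. Limma's test of whether the genotype difference moves with the log2 of age called 0 of the 10 genes and 0% of all genes, and at an unadjusted p under 0.05 it passed 0 of the 10 and 2.83% of all genes. For Muc5ac this trend was -0.14 ± 0.10 per doubling of age (limma adjusted p = 0.9996).

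The 50-week gap of Tff1 and Gkn2 depended on how the arrays were scaled. The 75th percentile of the array ran from 252.8 to 402.8 signal units over the 6 arrays, 1.59-fold, and at 50 weeks it was higher in the null array by 0.48 on the log2 scale. Before scaling, Tff1 ran from 399221 to 439626 units, 1.101-fold, and Gkn2 from 304599 to 337987 units, 1.11-fold. Their unscaled differences at 50 weeks were 0.02 for Tff1 and 0.01 for Gkn2, and that of Muc5ac was -0.13. For Tff1, Gkn2 and Muc5ac median scaling gave -0.24, -0.26 and -0.40, and spike-in scaling -0.51, -0.53 and -0.67. Quantile normalization gave 0, -0.23 and -0.72, and normexp 0.07, -0.13 and -0.69. The spike-in controls had a mean log2 signal of 12.13 in the 50-week null array and 11.60 in the wild-type one. The median of the 10 genes at 50 weeks was 0.09 without scaling, -0.17 with median scaling, -0.23 with quantile normalization, -0.22 with normexp and -0.44 with spike-in scaling. Both genes lie at the top of the signal range, with Tff1 at rank 1 or 2 and Gkn2 at rank 4 to 8 among the processed signals of each array, whose maxima were 401863 to 474037 units. The highest raw signals, 376417 to 433690 units, were below the saturation values of 778873 to 778928 units, and 0 spots were saturated. Whether signals this high respond in proportion to RNA was not tested. The part of the scaling in the 50-week differences of Tff1 and Gkn2 was not tested further.

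**Figure D3:**
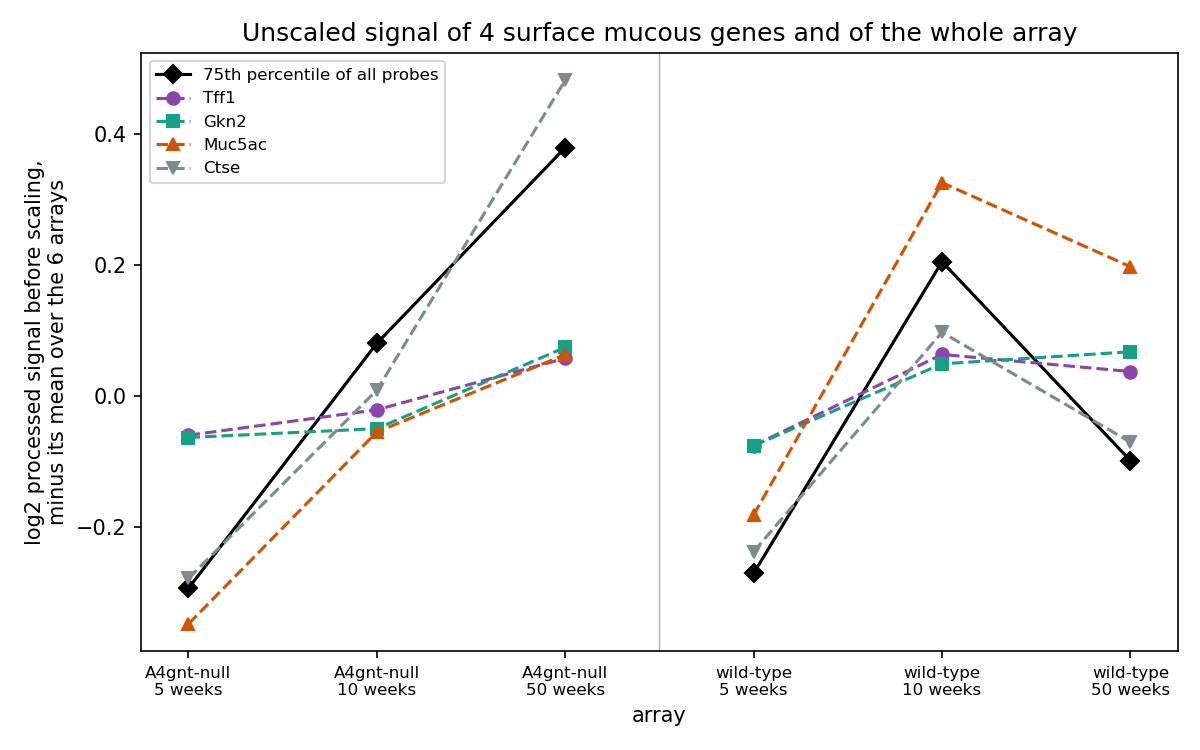
Log2 processed signal before scaling, each line minus its own mean over the 6 arrays, for the 75th percentile of all probes (black) and for Tff1, Gkn2, Muc5ac and Ctse, with the 3 A4gnt-null arrays left and the 3 wild-type arrays right. Tff1 and Gkn2 each move by 1.11-fold or less in all, while the 75th percentile moves by 1.59-fold and Ctse by 1.69-fold.

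No surface cell gene passed a test of age. Limma called 0 of the 10 genes for 10 against 5 weeks, 50 against 5 weeks or 50 against 10 weeks, and over all genes it called 2 higher (0.0112%) in each of the first 2 comparisons and 0 in the last (0%). At an unadjusted p under 0.05, 2 of the 10, Capn9 and Sult1c2, were higher at 50 than at 10 weeks, against 2.32% of all genes. Capn9 differed by 0.53 ± 0.18 between these ages (limma adjusted p = 0.710) and Sult1c2 by 0.45 ± 0.14 (adjusted p = 0.710). Gkn1 was higher at 50 than at 5 weeks by 0.38 ± 0.14 (adjusted p = 0.264), and Psca was lower by 0.54 ± 0.27 on the log2 scale (limma adjusted p = 0.352). In null mice 7 of 10 genes were higher at 50 than at 10 weeks, against 53.3% of all genes, and in wild-type mice 9 of 10, all but Psca, against 53.4%. None of the 10 moved by 2-fold between any 2 ages within a genotype. In null mice 7.59% of all genes did so from 5 to 10 weeks, 4% from 10 to 50 weeks and 11.1% from 5 to 50 weeks, and in wild-type mice 9.05%, 7.6% and 10.5%.

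The other genes of the surface cell were read from a list of 12, all above background on all 6 arrays and none called (0%). At all 3 ages 6 were higher in the null mice and 4 lower, against 26.1% of all genes each way, and their median difference was 0.08. Krt20, the keratin of mature surface cells, had levels of 6.63, 6.65 and 7.16 in null mice of 5, 10 and 50 weeks, against 5.46, 5.87 and 6.30 in wild-type mice. Every null array lay above every wild-type array, as in 12.5% of all genes tested. It differed by 0.94 ± 0.14 (limma adjusted p = 0.126). Cyp2s1, a cytochrome P450 of surface epithelia, went the opposite way, with 6.84, 6.09 and 6.53 in null mice against 7.93, 7.37 and 7.38 in wild-type mice. Every null array lay below every wild-type array, as in 11.3% of all genes tested. Its difference was -1.07 ± 0.14 (limma adjusted p = 0.110). The membrane mucin Muc1 differed by -0.53 ± 0.16 and the prostaglandin receptor Ptger4 by 0.71 ± 0.20. Surface cell genes outside the set of 10 were thus spread to both sides.

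Regulators of the pit cell, 11 transcription factors, receptors and ligands, had a median difference of -0.01, with 2 higher and 2 lower at all 3 ages and 0 called (0%). For this and the next 2 lists, 26.1% of all genes were higher and 26.1% lower at all 3 ages. The ligand of the EGF receptor Hbegf differed by 0.91 ± 0.39 and the transcription factor Klf4 by 0.50 ± 0.16, while Foxa2 differed by -0.33 ± 0.12 and Gata6 by -0.22 ± 0.11. Foxq1, which mouse surface cells need for Muc5ac, differed by -0.08 ± 0.13. Of 11 genes of mucin assembly and secretion, 6 were higher at all 3 ages, 0 lower and 0 called (0%), with a median of 0.23. The mucus protein gene Fcgbp differed by 1.35 ± 0.35, the glycosyltransferases that begin O-glycans, Galnt6 and Galnt3, by 0.77 ± 0.17 and 0.57 ± 0.19, and Agr2, which folds mucins, by 0.43 ± 0.22. Pan-epithelial genes had a median of 0.19, with 5 of 8 higher at all 3 ages, among them the tight junction gene Cldn7 (1.98 ± 0.16) and Epcam (0.77 ± 0.14), and 0 called.

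Lists of other gland cells had larger median differences, and no test set them against the surface genes. All 6 gland mucous genes were higher at all 3 ages (median 1.34), against 26.1% of all genes, and 26.1% of all genes were lower at all 3 ages. The summed level of the gland mucous genes was 1134 to 1752 in null mice and 433.6 to 990.2 in wild-type mice. All 7 parietal cell genes were lower (median -1.26), with sums of 218.8 to 629.6 in null mice and 491.4 to 755.4 in wild-type mice, and 6 of 7 chief cell genes were lower (median -0.998). The 4 antrum genes had a median of 1.28, with sums of 11.6 to 27.9 in null mice and 8.09 to 39.9 in wild-type mice. Of these 4, 3 were higher in null mice at all 3 ages, while Gast differed by 1.77, -1.20 and -5.03 at 5, 10 and 50 weeks. Dividing-cell genes had a median of 1.37. Limma called 0 genes of these lists (0%). The part of tissue make-up in the values of the surface genes was not tested.

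Ratios within an array do not change when all its genes are shifted alike, as with percentile, median, spike-in or no scaling. They can change with quantile normalization and with normexp. The mean genotype difference of the log2 ratio of Muc5ac to Muc6 was -1.43 with quantile normalization and -1.36 with normexp. The log2 ratio of the surface mucin Muc5ac to the gland mucin Muc6 differed between genotypes by -1.01, -1.22 and -1.54 at the 3 ages, a mean of -1.26 ± 0.27 (SD, n = 3 ages), which is 2.39-fold lower in the null mice (exact permutation p = 0.2, two-sided). That of the surface trefoil Tff1 to the gland trefoil Tff2 differed by -1.25, -0.92 and -0.69, a mean of -0.95 (exact permutation p = 0.1). That of Gkn2 to the gland gastrokine Gkn3 differed by -1.89, -2.16 and -1.92, a mean of -1.99, or 3.97-fold lower in the null mice (exact permutation p = 0.1). The permutation test set 3 null against 3 wild-type ratios without the pairing by age, whereas the SD is of the differences paired by age. With 3 mice against 3, 0.1 is the smallest p this test can give, and adjusted over the 7 ratios computed these p-values were 0.28, 0.233 and 0.233. Each ratio was lower in the null mouse at 3 of 3 ages. Muc6 itself differed by 0.92 ± 0.11, Tff2 by 0.83 ± 0.24 and Gkn3 by 1.85 ± 0.18 (limma, SE), so on this scale most of each mean shift was in the gland gene. At 50 weeks alone the Tff1 to Tff2 shift lay more in Tff1 (-0.46) than in Tff2 (0.23). Tff1 and Gkn2 enter these ratios from the top of the signal range.

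**Figure D4:**
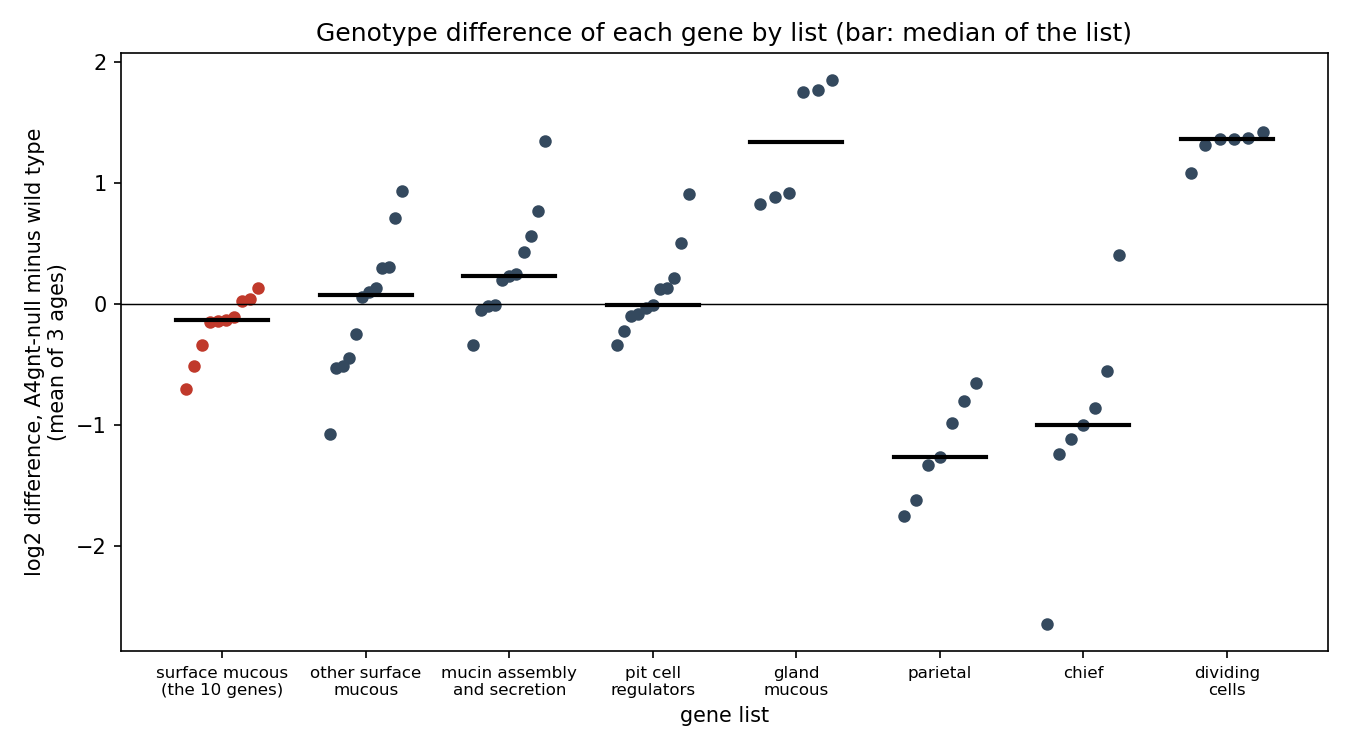
Log2 difference, A4gnt-null minus wild type, as the mean of 3 ages, for each tested gene (point) of 8 lists, with the list's median as a bar. The 10 surface mucous genes (red) lie between -0.70 and 0.13, gland mucous genes all lie above 0 and parietal cell genes all below.

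Genes of a like profile were taken by their Pearson r over the 6 arrays with the median of the 10 centred levels, among 4505 genes above background on all arrays that ranged over at least 2-fold. The 6 closest were 2210011K15Rik (r = 0.99), an unnamed transcript under probe A_55_P1980062 (r = 0.98), LOC100045044 (r = 0.95), Gm4365 (r = 0.95), H60b (r = 0.92) and Ugt1a10 (r = 0.92). As the highest of 4505 values over only 6 arrays, these r are high by selection and show no link to the surface cell. Between pairs of the 10 genes themselves r ran from -0.50 (Gkn1 and Psca) to 0.996 (Tff1 and Gkn2), so the median does not stand for every member. The median profile itself moved little, with centred levels of -0.02, -0.12 and 0.00 in null mice of 5, 10 and 50 weeks and 0.06, -0.09 and 0.19 in wild-type mice.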

How the data were processed

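Total RNA of 6 mice was measured on 6 arrays. Per the file headers, the authors read the intensity of each spot with Agilent Feature Extraction 10.7.1.1, whose processed signal is already background-subtracted. They also deposited a table of log2 values, equal to the log2 processed signal plus a constant per array (-7.88 to -8.54; 100% of 39399 probes within 0.01) with column medians of -3.56 to -3.89, used as an alternative. Outlier spots, 98 to 144 on an array, were left out, the spots of a probe averaged, and each array's 75th percentile subtracted on the log2 scale. The median log2 SD of replicate spots was 0.0864 to 0.121 per array over 399 probes with 10 spots, and 0.0590 to 0.0711 over the 243 of them above background on all arrays.

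Probes were named through RefSeq (26044 by accession, 3194 by symbol, 930 by synonym), and 9231 stayed under their array name. The probe of highest mean stood for a gene, and a gene was tested if 3 arrays were well above background. Genotype and age were fitted with limma 3.58.1 in R 4.3.3 (genotype plus age as a factor; Benjamini-Hochberg over all 17860 genes tested), and genotype by log2 age in a second limma fit. The labels tie same-age mice by age alone, so the block is by age. In simulated data of this design, with 200 of 17860 genes changed in 10 runs, limma called 0% of 2-fold and 43.2% of 4-fold changes.

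The members, the 18 gene lists and the ratios were chosen with earlier results of these data known. From each list up to 4 genes above background on all arrays with the largest difference were named, and Foxq1, Tff2, Krt14, Krt6a and Krt4 outside that rule, after their values were seen. Alternatives were quantile, median, spike-in and no scaling, normexp background, the deposited table, the mean of a gene's probes, 2 filters on signal, a variance trend, no age term and leaving out each age.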

Additional observations from a re-analysis of the deposited data

Results flagged for a closer look

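Over the steps of 50 minus 10 and 50 minus 5 weeks, a surface cell gene moved in opposite directions in the 2 genotypes in 7 cases. Muc5ac at 50 minus 10 weeks was -0.18 in the null mice and 0.18 in the wild-type mice, and at 50 minus 5 weeks -0.26 in the null mice and 0.21 in the wild-type mice. Tff1 at 50 minus 10 weeks was -0.22 in the null mice and 0.28 in the wild-type mice, and Gkn2 over the same ages -0.17 in the null mice and 0.32 in the wild-type mice. Psca at 50 minus 10 weeks was 0.0683 in the null mice and -0.455 in the wild-type mice. Ctse at 50 minus 5 weeks was 0.0878 in the null mice and -0.0051 in the wild-type mice, and Vsig1 over those ages -0.15 in the null mice and 0.34 in the wild-type mice. At 10 minus 5 weeks Psca also moved apart, by -0.83 in the null mice and 0.13 in the wild-type mice. So did Vsig1 (-0.27 null, 0.22 wild type), Muc5ac (-0.08 null, 0.03 wild type) and Capn8 (0.09 null, -0.06 wild type). The share of all genes that moved in opposite directions was not counted. Each step compares 1 mouse with 1 mouse, so the difference between genotypes in a single step was not tested, and the spread between mice of one group is not known. The limma trend of the genotype difference with log2 age called 0 of the 10 genes.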

How the results depend on the processing

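Limma called 0 of the 10 genes under 14 alternatives for genotype, 10 for age and 7 for the interaction. For genotype this included the fit with no replicate block (no age term; 0 calls), where the pairing by age was left out, and when each age was left out (0 calls each). Over all genes the genotype calls were 597 higher and 442 lower without scaling, 28 and 13 with a variance trend, 4 and 2 with normexp or without the age term, and 0 and 1 with quantile normalization. Median scaling moved the median genotype difference of all genes by 0.16, no scaling by 0.11 and no filter on signal by -0.12. Muc5ac (-0.54 to -0.18), Psca (-0.93 to -0.45) and Capn9 (-0.64 to -0.35) kept their direction in all 14 genotype alternatives, with limma adjusted p from 0.0936, 0.109 and 0.113 upward. Small differences changed sign, none of them called. Tff1 was 0.0244 with quantile normalization, 0.0332 with median scaling and 0.0439 with normexp, and ranged from -0.2092 to 0.0394 when each age was left out, the positive value being without replicate 3 (the 50-week mice). Gkn2 was 0.0228 with median scaling and 0.0316 with normexp, and ranged from -0.2225 to 0.0305, again positive without replicate 3. Gkn1 was -0.0495 with normexp and ranged from -0.0115 without replicate 1 (the 5-week mice) to 0.0915. Vsig1 was -0.0227 with normexp and ranged from -0.0299 without replicate 1 to 0.2173. Capn8 was 0.0101 with median scaling, Sult1c2 0.0569 with median scaling and 0.0076 without scaling, and Ctse -0.17 with quantile normalization and -0.14 with normexp. Median scaling and no scaling move all genes of an array alike, and relative to the median gene Capn8 stood at -0.12, Sult1c2 at -0.08, Tff1 at -0.10 and Gkn2 at -0.11 under the 75th percentile, median scaling and no scaling alike. The genes lower in null mice at all 3 ages numbered 5 with quantile normalization and 6 with normexp, and those higher 3 with median scaling and 1 in the deposited table. At 50 weeks, without scaling, Muc5ac was -0.13, Capn9 -0.03, Tff1 0.02 and Gkn2 0.01, and with normexp Tff1 was 0.07 and Gkn2 -0.13. With spike-in scaling Muc5ac was -0.67, Capn9 -0.57, Tff1 -0.51 and Gkn2 -0.53 at that age. The cause was not tested. With 1 mouse per genotype and age, the lack of calls does not show that the genes were unchanged. The simulation, in which limma called 0% of 2-fold changes, changed a small share of the genes. In the measured data 23.6% of genes had an unadjusted limma p under 0.05 for genotype. Whether the simulated rates hold for these data was therefore not tested.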
